A study of Mus musculus with 24 samples.

Results

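The mRNA of 9 genes of the folliculin complex, the Rag GTPases and the Ragulator complex was followed across 8 lines of B16-F10 mouse melanoma cells. The genes were Flcn, Fnip1 and Fnip2, then Rraga, Rragc and Rragd, then Lamtor1, Lamtor2 and Lamtor4. They were chosen by symbol, all 9 were among the 12010 genes of the deposited table, and no filter was applied that could remove one. The lines were the parental B16F10-luc2 cells, which carry a luciferase reporter, the MITF KO, the TFE3 KO, the TFEB KO, the MITF/TFE3 DKO, the MITF/TFEB DKO, the TFEB/TFE3 DKO and the TKO without MITF, TFEB and TFE3, with 3 libraries of each. Every KO line shares the reporter and the growth conditions of the parental cells. The MITF KO is a line made earlier that carries a frameshift in Mitf and may still make a low amount of a truncated protein. Tfeb and Tfe3 were then edited with 1 CRISPR guide each in parental or MITF KO cells and screened for monoclonal knockouts, so that a deletion and the clone that carries it cannot be told apart. All lines without MITF thus derive from the same MITF KO line, and Mitf was not edited in a line that already lacked TFEB or TFE3. No source says that the 3 libraries of a line came from separate cultures, and the p-values then measure only the spread between these libraries.

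These genes form the lysosomal arm that tells mTORC1, the kinase complex that drives growth, whether amino acids are present. Rag GTPases work as pairs, RagA or RagB with RagC or RagD, and Ragulator, a scaffold built of LAMTOR subunits, holds the pair on the lysosome. Folliculin, with FNIP1 or FNIP2, is the GTPase-activating protein for RagC and RagD, and this step lets mTORC1 phosphorylate TFEB and TFE3 and keep them out of the nucleus. MITF, TFEB and TFE3 are related transcription factors that bind the E-box CACGTG and the related M-box TCATGTGA, and lysosomal genes are among their known targets. Flcn is lost in Birt-Hogg-Dubé syndrome, a disease of skin and kidney tumours.

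Promoter windows were read for all 9 genes from the RefSeq promoter table, which uses GRCm38.p6, and each was placed in GRCm39 by a single exact match. A window holds 250 bases before the RefSeq start of the gene and 50 bases after it. The gene positions given further below are from GENCODE, and their starts can differ from the RefSeq starts. The window of Flcn, chr11:59700816-59701115, lies wholly inside its GENCODE position. That of Lamtor1 ends at 101555093, before its GENCODE start at 101555111. The motifs CACGTG, TCACGTGA, TCATGTGA and CATGTG were searched on both strands, where CACGTG lies inside TCACGTGA and CATGTG lies inside TCATGTGA. Of all 32851 windows of the table, 7.15% held CACGTG, 0.974% held TCACGTGA, 0.986% held TCATGTGA and 14.2% held CATGTG. The first of these words was found in Fnip1, Rragc, Lamtor1 and Lamtor4, and TCATGTGA in Lamtor1 and Lamtor2. A match is a description of the letters, not of a bound site. The stretches around these matches are shown because they are the words that the 3 deleted factors can read, with the match in capitals and 5′ to 3′ on the strand of the gene.
Fnip1, chr11:54328910-54328955, + strand: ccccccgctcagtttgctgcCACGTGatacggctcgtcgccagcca
Rragc, chr4:123811094-123811139, + strand: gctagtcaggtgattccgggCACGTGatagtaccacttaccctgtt
Lamtor1, chr7:101554926-101554973, + strand: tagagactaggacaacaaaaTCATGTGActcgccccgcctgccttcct
Lamtor1, chr7:101554956-101555001, + strand: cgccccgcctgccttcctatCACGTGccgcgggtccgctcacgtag
Lamtor2, chr3:88460339-88460386, - strand: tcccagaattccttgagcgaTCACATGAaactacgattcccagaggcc
Lamtor4, chr5:138253604-138253665, + strand: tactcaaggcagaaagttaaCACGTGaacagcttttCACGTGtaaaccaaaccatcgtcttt

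In these stretches the first base of the match lay at -75 from the RefSeq start in Fnip1, at -112 in Rragc and at -98 and -68 in Lamtor1. It lay at -108 in Lamtor2 and at -120 and -104 in Lamtor4. All such positions in this paragraph are counted from the RefSeq start. By GENCODE, Lamtor2 spans chr3:88457115-88460381 on the - strand, so that its TCATGTGA match lies inside the gene. Lamtor2 holds TCATGTGA on the other strand, where it reads TCACATGA on the strand of the gene. CATGTG was also found by itself in Lamtor1 at -184 and in Lamtor2 at -160, where it reads CACATG. None of the 4 words was found in the windows of Flcn, Fnip2, Rraga or Rragd. A window without these words does not show that the gene lacks a bound site. In human melanoma cells, the study reports MITF at the promoters of RRAGD and of an FNIP2 isoform, and proposes both genes as MITF targets. It also reports that depletion of MITF lowered both mRNAs, that induced β-catenin raised them, and that both correlated with MITF mRNA. In the mouse MITF KO used here, Rragd was at 0.49 and Fnip2 at 0.06 against the parental line on the log2 scale. What underlies this difference was not tested. The window of Rragd is printed because this gene had the widest range across the lines, and it holds none of the words within its 300 bases.
Rragd, chr4:32982748-32983047, + strand: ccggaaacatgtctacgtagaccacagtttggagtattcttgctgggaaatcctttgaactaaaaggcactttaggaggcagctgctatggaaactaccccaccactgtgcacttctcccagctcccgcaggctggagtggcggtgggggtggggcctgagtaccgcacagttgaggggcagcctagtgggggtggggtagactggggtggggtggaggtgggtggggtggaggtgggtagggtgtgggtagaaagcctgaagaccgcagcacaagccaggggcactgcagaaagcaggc

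The libraries hold reads from transcript 3′ ends, whose number does not depend on transcript length, with 18300902 to 26667877 reads on genes in each. Values are CPM, reads scaled to the size of the library, with TMM, a factor per library that evens out composition. Tfeb was at 2.06 to 5.27 CPM in the 4 lines without TFEB and at 7.87 to 22.7 CPM in the others, and Tfe3 was at 8.01 to 21.7 CPM in the lines without TFE3 and at 31.1 to 62.5 CPM in the others. Of the lines without TFE3, the TKO kept the most Tfe3, with a mean of 19.8 CPM against 37.1 CPM in the parental line. Of those without TFEB, the TFEB/TFE3 DKO kept the most Tfeb, with 5.12 CPM against 8.80 CPM. Mitf mRNA was 1358 to 1471 CPM in the MITF KO and 763 to 797 CPM in the parental line. A 3′ tag outside the edited exon does not test the edit. The Mitf mRNA thus does not check the MITF label, and the Tfeb and Tfe3 mRNA do not show by themselves that the edits are complete. All 8 melanocyte lineage markers were in the table, and their summed level was 26130 to 26950 CPM in the parental line, 38410 to 40320 CPM in the MITF KO, and lowest in the MITF/TFEB DKO (17180 to 19640 CPM) and the TKO (15830 to 16860 CPM). Of the fibroblast, macrophage, endothelial and keratinocyte markers, 3 of 7, 2 of 6, 1 of 4 and 2 of 4 were in the table, with summed levels of at most 53.9, 5.12, 31.6 and 19.7 CPM in any library.

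Libraries of the same line differed from each other along a shared direction, and most of the 9 genes moved along it. The first axis of the deviations from the line means, computed over 6625 genes without the genes of this pathway, held 57.7% of the variance within lines, against 10.7% for the second axis, and 24.5% of those genes followed it with a Pearson r beyond 0.8 in either direction. Each library was given a score on this axis. Over the 24 libraries, which share their lines and their scaling with the score, the deviation of Rragc from its line means had an r of 0.98 with the score, Flcn 0.92, Rraga 0.89, Rragd 0.87 and Fnip1 0.81. Lamtor4 went the other way at -0.85, Fnip2 at -0.52, Lamtor2 at -0.27 and Lamtor1 at -0.14. The libraries farthest out were TFEB KO replicate 2 at 16.3, TFEB/TFE3 DKO replicate 2 at 16.1 and TFE3 KO replicate 1 at -14.9. The score had an r of -0.17 with the number of reads and of 0.77 with the TMM factor within lines. Line means of the score ran from -12.0 in the MITF KO to 9.37 in the TFE3 KO, so that results are also given with the score as a covariate, an alternative chosen after seeing the data. The score was taken from these same libraries. Fitting it lowers the spread left for genes that follow it and shifts differences between lines. The p-values with the score are thus smaller for such genes partly for that reason. What sets the score was not tested.

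**Figure D1:**
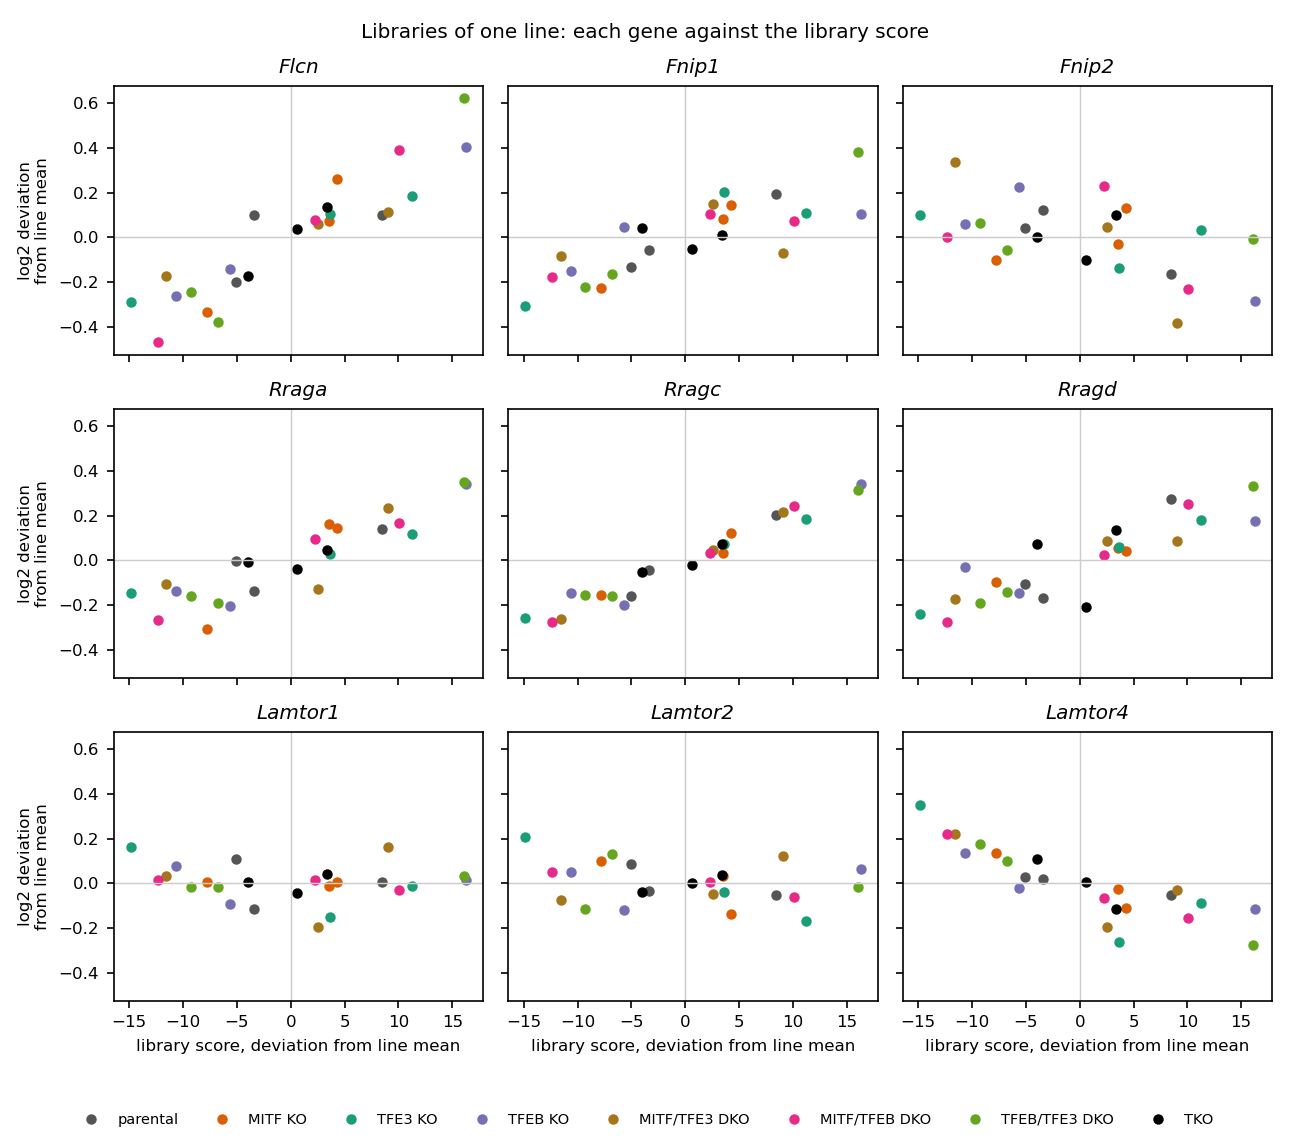
Deviation of each of the 9 genes from its line mean (log2 of CPM + 1, vertical axes) against the deviation of the library score from the line mean (horizontal axes, no unit), 1 panel per gene and 1 point per library, coloured by line. Flcn, Fnip1, Rraga, Rragc and Rragd rise with the score, with r between 0.81 and 0.98, Lamtor4 falls with it at -0.85, and Lamtor1 and Lamtor2 show little relation.

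Across the 8 lines, Rragd spanned 1.65 between its lowest and highest line mean on the log2 scale, a wider range than that of 89.9% of the genes with a mean of at least 5 CPM. Flcn spanned 1.29, Lamtor4 0.89, Rraga 0.86, Fnip2 0.61, Rragc 0.59, Lamtor2 0.54, Fnip1 0.49 and Lamtor1 0.36. The range of Lamtor1 was wider than that of only 5.69% of those genes. Of the 28 pairs of lines, the 3 libraries did not overlap in 16 for Rragd, 15 for Lamtor2, 13 for Lamtor1 and for Lamtor4, 12 for Fnip2, 9 for Flcn and for Rraga, 6 for Fnip1 and 3 for Rragc. The share of such pairs over all genes was not computed, so these counts do not set the 9 genes apart from other genes.

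**Figure D2:**
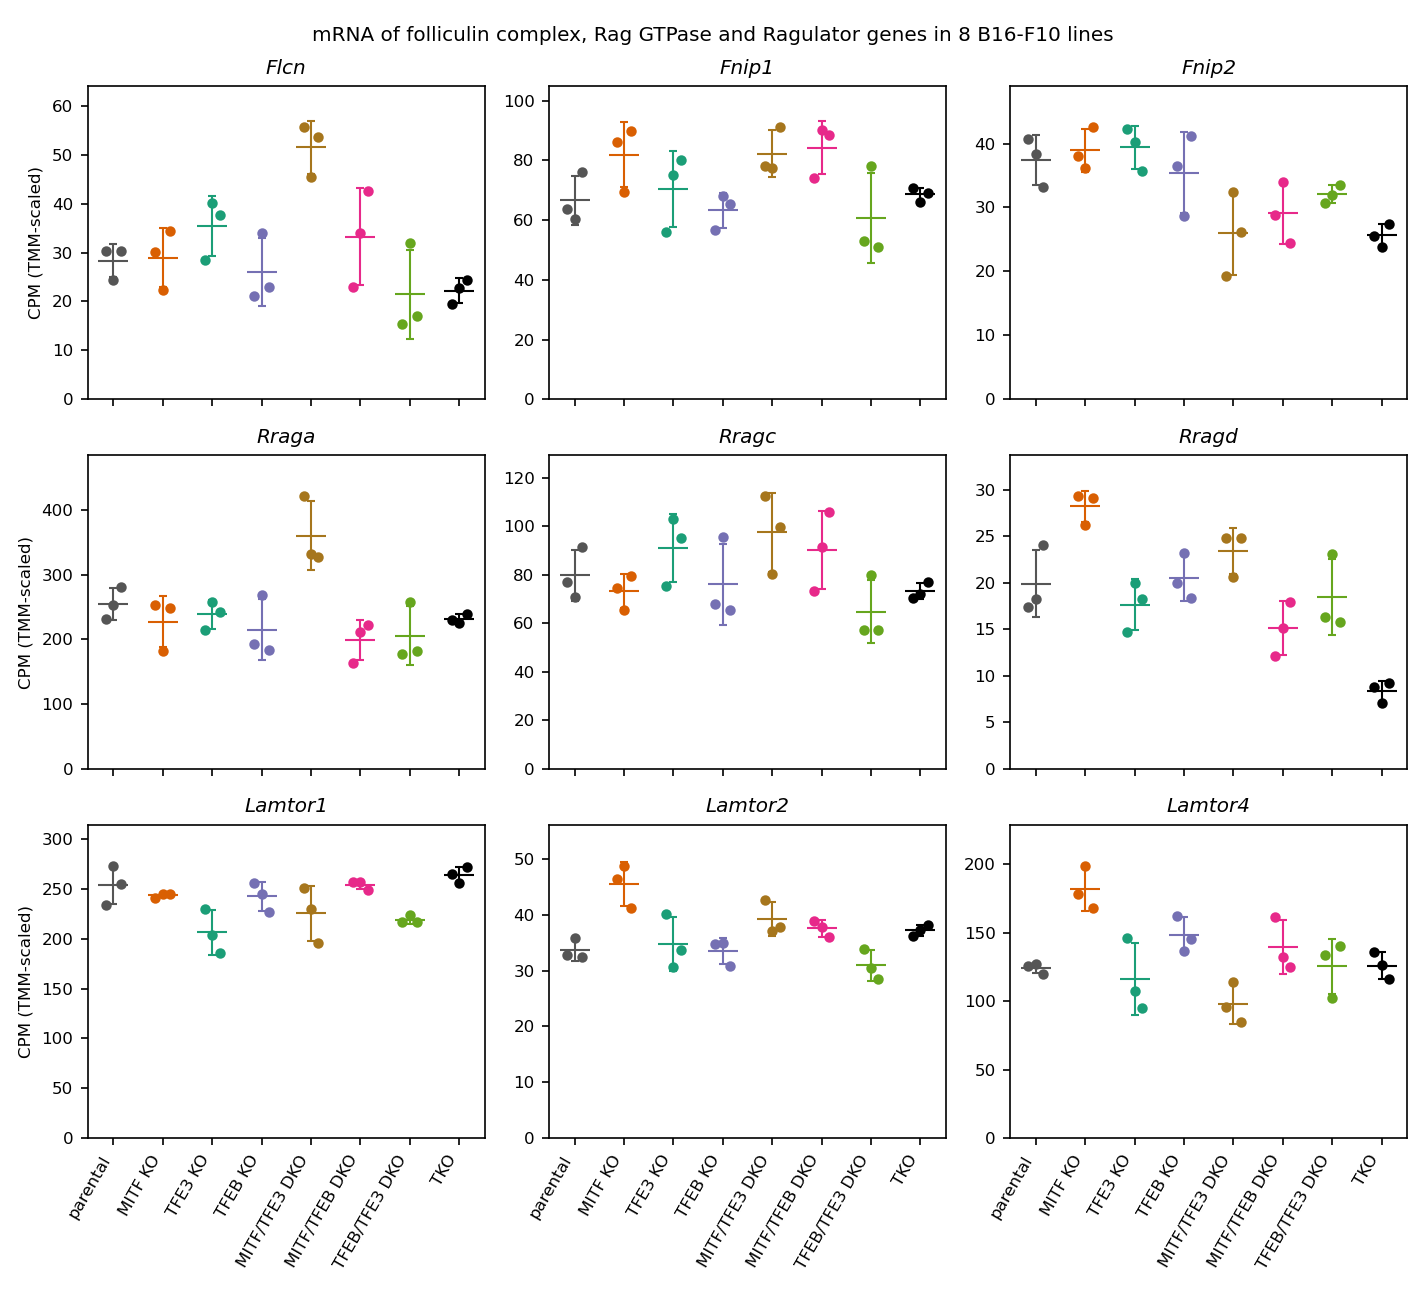
CPM (TMM-scaled, vertical axes from 0) of the 9 genes in the 8 lines. Points are the 3 libraries of a line, the wide tick is their mean and the bar is the SD; Rragd is lowest in the TKO (8.34 CPM on average) and highest in the MITF KO (28.2 CPM), and Flcn and Rraga are highest in the MITF/TFE3 DKO.

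The first question of the design is what the loss of each factor, alone or together, does relative to the parental cells. A gene was called at an adjusted p under 0.05 in limma, with Benjamini-Hochberg adjustment over all 12010 genes, and fold changes are on the log2(CPM + 1) scale. In the MITF KO, Rragd, Lamtor2 and Lamtor4 rose, 3 of the 9 genes, where 20.1% of all genes rose and 17.8% fell. In the TFE3 KO, 1 gene fell, Lamtor1, where 4.5% of all genes rose and 7.78% fell. In the TFEB KO, limma called 0 of the 9 genes, 0 had an unadjusted p under 0.05 and edgeR called 0, where 2.25% of all genes rose and 2.59% fell. In the TFEB/TFE3 DKO, limma and edgeR called 0, while 1 gene, Lamtor1, had an unadjusted p under 0.05, where 4.72% of all genes rose and 4.09% fell. In the MITF/TFE3 DKO, Flcn and Rraga rose and Fnip2 and Lamtor4 fell, 4 of 9, where 20.2% of all genes rose and 21.7% fell. In the MITF/TFEB DKO, 1 gene fell, Fnip2, where 28.8% of all genes rose and 27.3% fell. In the TKO, 2 genes fell, Rragd and Fnip2, where 28.3% of all genes rose and 27.9% fell. The median change of the 9 genes lay between -0.21 in the TFEB/TFE3 DKO and 0.23 in the MITF/TFE3 DKO, against medians of all genes between -0.016 and 0.016 in these 7 comparisons, which share the parental libraries. The TKO and the MITF/TFEB DKO had the highest shares of all genes called, against 2 and 1 of the 9 genes.

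**Figure D3:**
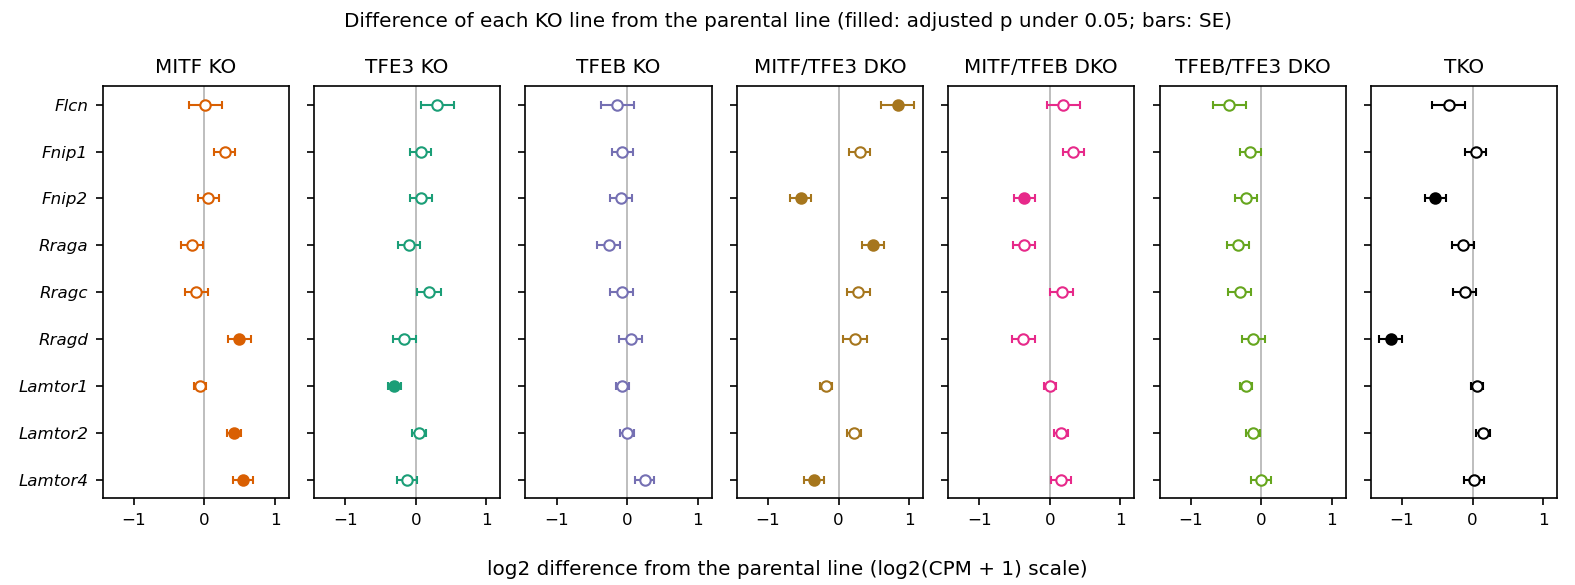
Log2 difference of each KO line from the parental line (horizontal axes, log2(CPM + 1) scale) for the 9 genes, 1 panel per KO line. Bars are the SE from limma and filled points have an adjusted p under 0.05; the farthest points are Rragd in the TKO at -1.16 and Flcn in the MITF/TFE3 DKO at 0.84.

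Rragd, at chr4:32982984-33025899 on the + strand, encodes RagD, a partner of RagA or RagB whose nucleotide state is set by folliculin. The parental libraries were at 17.4, 18.3 and 24.05 CPM, those of the MITF KO at 29.3, 26.3 and 29.1 CPM, and those of the TKO at 8.78, 7.04 and 9.20 CPM. The TKO libraries lay below every other library of the series, and the MITF KO libraries lay above every other library. The MITF/TFEB DKO libraries held 12.2, 15.2 and 18.0 CPM and the MITF/TFE3 DKO libraries 24.9, 20.6 and 24.9 CPM. These did not overlap either, so that lines without MITF held both the lowest and the highest levels. In lines with MITF the values were closer together, at 14.7 to 19.995 CPM in the TFE3 KO, 18.4 to 23.3 CPM in the TFEB KO and 15.8 to 23.2 CPM in the TFEB/TFE3 DKO. In rising order of line means, the lines were the TKO, MITF/TFEB DKO, TFE3 KO, TFEB/TFE3 DKO, parental, TFEB KO, MITF/TFE3 DKO and MITF KO. Only the first and the last step of this order separated neighbours whose libraries did not overlap.

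Relative to the parental line, Rragd rose by 0.49 ± 0.16 (SE) in the MITF KO, with an adjusted p of 0.0202 in limma. That call was lost without parental replicate 1 or 2 or MITF KO replicate 1 or 3, where the change was 0.41 to 0.63 over all 6 libraries left out and the adjusted p reached 0.0908. In the TKO, Rragd fell by 1.16 ± 0.16, a fold of 0.448, with an adjusted p of 2.43e-06, and the call held without any of the 6 libraries. It was the only 1 of the 9 genes past the study's own rule against the parental line (a change of 2-fold or more with an unadjusted p under 0.05), which 14.7% of all genes passed in the TKO. Here and below, the rule was applied to the limma values, whereas the study applied it to edgeR results. The MITF/TFEB DKO differed from the parental line by -0.38 with an adjusted p of 0.0522.

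Within cells that lack MITF, Rragd fell with the further loss of TFEB. Relative to the MITF KO it fell by 0.87 ± 0.16 in the MITF/TFEB DKO, with an adjusted p of 0.000119, and by 1.65 ± 0.16 in the TKO, with an adjusted p of 1.93e-08. Between the MITF/TFEB DKO and the TKO, a comparison added after seeing the data, it fell by 0.78 ± 0.16, with an adjusted p of 0.00196. Against the MITF/TFE3 DKO, also added, the TKO was lower by -1.39 ± 0.16, with an adjusted p of 2.20e-07. In the MITF/TFE3 DKO against the MITF KO it lay at -0.26, with an adjusted p of 0.213. Of the 2 lines that lack both TFEB and TFE3, the TKO, which also lacks MITF, was the lower. Rragd was at -1.05 ± 0.16 in the TKO against the TFEB/TFE3 DKO, a separate clone, with an adjusted p of 9.41e-06. Between the lines with both TFEB and TFE3, Rragd was higher in the MITF KO than in the parental line, so the 2 contrasts had opposite signs. Their difference was -1.54 ± 0.23, with an adjusted p of 1.45e-05. With the score as a covariate, the TKO was at -1.32 against the parental line and at -1.98 against the MITF KO, and each of the calls of Rragd named here was kept. With the score it also passed in the MITF/TFE3 DKO against the MITF KO, at -0.62 with an adjusted p of 0.000247.

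The share of genes called in these comparisons was large. Relative to the MITF KO, 25.1% of all genes rose and 23.9% fell in the MITF/TFEB DKO, and 4 of the 9 genes fell, Fnip2, Rragd, Lamtor2 and Lamtor4. For the TKO the shares were 26.1% and 23.9%, with the same 4 of the 9 lower. In the TKO against the TFEB/TFE3 DKO, 30.1% of all genes rose and 27.7% fell, with Rragd lower and Lamtor1 and Lamtor2 higher. Between the MITF/TFEB DKO and the TKO, 5.41% of all genes rose and 6.99% fell, and Rragd was the gene of the 9 that was called. By the study's rule, 10.9% of all genes were called in the TKO against the MITF KO, 15.9% in the TKO against the TFEB/TFE3 DKO, 11.4% in the TKO against the MITF/TFE3 DKO and 14.9% for the difference between the effects of MITF loss without and with both other factors, and Rragd was called in each.

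Of 9538 other genes with a mean of at least 5 CPM, those whose level was most like that of Rragd over the 24 libraries were Mitf, with a Pearson r of 0.89, Tyrp1, a pigment enzyme gene, with 0.87, and Tmem199 with 0.86. These points share their lines, and the TKO and MITF KO libraries lie at the ends. Mean Mitf mRNA was 776 CPM in the parental line, 1397 CPM in the MITF KO and 335 CPM in the TKO, and mean Tyrp1 was 2571, 3793 and 1078 CPM in the same order. The summed melanocyte markers were also highest in the MITF KO and lowest in the TKO. In the TFE3 KO and the TFEB/TFE3 DKO, however, they lay above the parental line (29520 to 31630 CPM and 29330 to 31200 CPM), while mean Rragd was 17.7 and 18.4 CPM against 19.9 CPM in the parental line. The part of the markers in the change of Rragd was not tested. The lncRNA gene 4933421O10Rik lies on the other strand at the 3′ end of Rragd. No source used here says that strand was used in counting, so reads of the 2 genes cannot be told apart. The lncRNA was at 1.43 to 5.01 CPM over all libraries, below Rragd in each line.

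**Figure D4:**
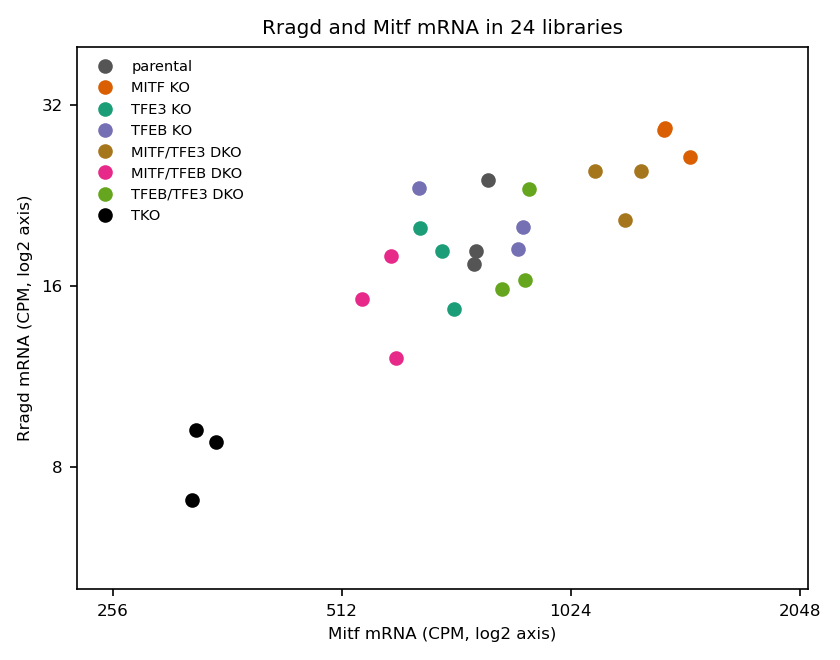
Rragd mRNA (vertical axis, CPM) against Mitf mRNA (horizontal axis, CPM) in the 24 libraries, both on log2 axes, coloured by line. The TKO libraries sit at the lower left (Mitf 326 to 350 CPM) and the MITF KO libraries at the upper right (Mitf 1358 to 1471 CPM), with r = 0.89 over all libraries on the log2(CPM + 1) scale.

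Rraga, at chr4:86493905-86495522 on the + strand, encodes RagA. It was at 232, 254 and 281 CPM in the parental line and at 422, 332 and 327 CPM in the MITF/TFE3 DKO. The MITF/TFE3 DKO lay above every other library of the series. Rraga rose there by 0.49 ± 0.16 against the parental line, with an adjusted p of 0.0173, and by 0.67 ± 0.16 against the MITF KO, with an adjusted p of 0.00247. Fitted with the score, these rises were 0.29 and 0.28, with adjusted p-values of 0.00413 and 0.0150. The rise over the parental line was lost without parental replicate 1 or MITF/TFE3 DKO replicate 1, with a change of 0.37 to 0.56 over the 6 libraries left out and an adjusted p of up to 0.101. From the MITF/TFE3 DKO to the TKO it fell by 0.62 ± 0.16, with an adjusted p of 0.00237. The remaining lines ran from a mean of 199 CPM in the MITF/TFEB DKO to 239 CPM in the TFE3 KO, and their differences from the parental line did not pass. The nearest was the MITF/TFEB DKO, at -0.37 with an adjusted p of 0.0548, which with the score was -0.46 with an adjusted p of 6.48e-06.

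Rragc, at chr4:123811217-123830793 on the + strand, encodes RagC. It was at 76.9, 70.9 and 91.5 CPM in the parental line, and its line means ran from 64.8 CPM in the TFEB/TFE3 DKO to 97.5 CPM in the MITF/TFE3 DKO. The libraries of neighbouring lines overlapped at each of the 7 steps of that order. None of the 7 KO lines differed from the parental line past the threshold in limma, edgeR or at an unadjusted p under 0.05 for this gene. From the MITF/TFE3 DKO to the TKO it fell by 0.40 ± 0.16, with an adjusted p of 0.0482, a call that was lost without any library but MITF/TFE3 DKO replicate 2 and whose adjusted p then reached 0.202. Rragc followed the library score most closely of the 9 genes. With the score as a covariate it was lower in the TKO than in the parental line, at -0.31 with an adjusted p of 0.000123, against -0.11 and 0.575 without it.

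Flcn, at chr11:59682196-59701138 on the - strand, encodes folliculin itself. It was at 30.3, 24.5 and 30.3 CPM in the parental line and at 55.7, 45.4 and 53.6 CPM in the MITF/TFE3 DKO. As for Rraga, the MITF/TFE3 DKO lay above every other library. Flcn rose there by 0.84 ± 0.23 against the parental line, a fold of 1.79, with an adjusted p of 0.00604, and this held without any of the 6 libraries. Against the MITF KO it rose by 0.83 ± 0.23, with an adjusted p of 0.00817, which was lost without MITF KO replicate 2, at 0.66 with an adjusted p of 0.0592. From the MITF/TFE3 DKO to the TKO it fell by 1.18 ± 0.23, with an adjusted p of 0.000212. With the score as a covariate the rise over the parental line was 0.53, with an adjusted p of 0.000235, and that over the MITF KO was 0.25, with an adjusted p of 0.130.

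The spread of Flcn within lines was the widest of the 9 genes. In the TFEB/TFE3 DKO it was at 15.4, 31.9 and 17.1 CPM, a 2.07-fold range, and in the MITF/TFEB DKO at 23.0, 34.1 and 42.6 CPM. The high library of the TFEB/TFE3 DKO, replicate 2, is the same that stood far out on the library score. The TKO held 19.6, 22.7 and 24.4 CPM, just below the lowest parental library, with a difference of -0.34 and an adjusted p of 0.230. With the score as a covariate this difference was -0.60, with an adjusted p of 2.51e-05, where the mean score was 7.37 in the TKO and -2.12 in the parental line. The genes most like Flcn over the 24 libraries were Rragc with a Pearson r of 0.90, Tpp1, a lysosomal protease gene, with 0.90, and Atp6v1b2, a subunit gene of the lysosomal proton pump, with 0.90. All of these likenesses were taken over libraries that also share the score.

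Fnip1 and Fnip2 encode the alternative partners of folliculin, and they moved in opposite directions when lines without MITF were compared with lines with MITF. Fnip1, at chr11:54328978-54409067 on the + strand, ran from a mean of 60.7 CPM in the TFEB/TFE3 DKO to 84.3 CPM in the MITF/TFEB DKO. Over the 4 lines without MITF it was higher by 0.28 ± 0.07 than over the 4 lines with MITF, with an adjusted p of 0.00173. Fnip2, at chr3:79363280-79475188 on the - strand, was lower by -0.28 ± 0.08, with an adjusted p of 0.00210. Both calls held without any of the 24 libraries. The 4 lines without MITF derive from the same MITF KO line, so leaving out libraries does not test another clone. In that MITF KO itself Fnip2 lay at 0.06 against the parental line, with an adjusted p of 0.798 in limma. In this comparison 35.1% of all genes rose and 33.7% fell, and of the 9 genes Fnip1, Lamtor1 and Lamtor2 rose and Fnip2 fell.

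Fnip2 was at 40.7, 38.4 and 33.2 CPM in the parental line and at 25.6, 23.8 and 27.5 CPM in the TKO. The MITF/TFE3 DKO libraries held 19.3, 32.4 and 26.2 CPM of it, and the MITF/TFEB DKO libraries 28.9, 33.9 and 24.4 CPM. Of these 3 lines, the TKO and the MITF/TFE3 DKO lay wholly below the parental libraries. In the MITF KO itself it was at 38.0, 36.1 and 42.6 CPM, which overlapped the parental line. Fnip2 fell by 0.53 ± 0.15 in the TKO against the parental line, with an adjusted p of 0.00533, and by 0.58 ± 0.15 against the MITF KO, with an adjusted p of 0.00291. In the MITF/TFE3 DKO it fell by 0.54 ± 0.15 against the parental line, with an adjusted p of 0.00689, which reached 0.0713 without MITF/TFE3 DKO replicate 1. Against the MITF KO it fell there by 0.59 ± 0.15, with an adjusted p of 0.00410, and by 0.39 with the score, with an adjusted p of 0.0369.

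The fall of Fnip2 in the MITF/TFEB DKO rested on single libraries. It was -0.36 ± 0.15 against the parental line, with an adjusted p of 0.0476, and -0.42 ± 0.15 against the MITF KO, with an adjusted p of 0.0267. The first was lost without parental replicate 1 or 2 or MITF/TFEB DKO replicate 1 or 3 (adjusted p of up to 0.225), and the second without MITF KO replicate 3 or MITF/TFEB DKO replicate 1 or 3 (up to 0.150). With the score the first was -0.31, with an adjusted p of 0.0299, and the second -0.27, with an adjusted p of 0.0882. Of 104 words of 50 bases taken from the last 300 bases of the coding transcripts of Fnip1, 14 were also found in transcripts of other genes, so its reads may be shared. The same search found no shared word for the other 8 genes. Fnip2 overlaps Spmip2 on the other strand at its 3′ end, and without strand their reads cannot be told apart.

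Ragulator holds the Rag pair on the lysosome. Lamtor2 and Lamtor4 rose in the MITF KO, where Lamtor1 lay at -0.06 with an adjusted p of 0.623. Lamtor2, at chr3:88457115-88460381 on the - strand, encodes 1 of the scaffold subunits wrapped by LAMTOR1. It was at 32.8, 35.7 and 32.4 CPM in the parental line and at 46.5, 48.8 and 41.2 CPM in the MITF KO, without overlap. It rose in the MITF KO by 0.42 ± 0.10, with an adjusted p of 0.00187, and the call held without any of the 6 libraries. The 3 other lines without MITF had means between 37.2 and 39.2 CPM, all above the parental mean of 33.6 CPM, and over the 4 lines without MITF Lamtor2 was higher by 0.25 ± 0.05, with an adjusted p of 0.000102. It was lower than in the MITF KO by -0.27 ± 0.10 in the MITF/TFEB DKO, with an adjusted p of 0.0305, and by -0.28 ± 0.10 in the TKO, with an adjusted p of 0.0235. Both of these were lost without MITF KO replicate 1 or 2, the first also without MITF/TFEB DKO replicate 2 or 3 (adjusted p of up to 0.128) and the second without TKO replicate 1 or 2 (up to 0.105). With the score as a covariate they had adjusted p-values of 0.0621 and 0.0769.

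Lamtor4, at chr5:138253744-138257660 on the + strand, encodes a further scaffold subunit. Its level was 126, 127 and 120 CPM in the parental line, and the MITF KO had 178, 199 and 168 CPM. The MITF/TFE3 DKO had 95.5, 114 and 84.9 CPM. The MITF KO lay above every other library of the series, and the MITF/TFE3 DKO lay below the parental line. It rose in the MITF KO by 0.54 ± 0.14, with an adjusted p of 0.00397, which held without any of the 6 libraries. In the MITF/TFE3 DKO against the MITF KO it fell by 0.89 ± 0.14, with an adjusted p of 4.06e-05, and in the TKO against the MITF KO by 0.52 ± 0.14, with an adjusted p of 0.00357. Fitted with the score, these falls were -0.58 and -0.24, with adjusted p-values of 1.25e-05 and 0.0287. In the first of these comparisons 18.1% of all genes rose and 19.7% fell, and Flcn and Rraga were higher and Fnip2 and Lamtor4 lower. For the MITF/TFEB DKO the fall from the MITF KO was -0.38 ± 0.14, with an adjusted p of 0.0275, and was lost without MITF KO replicate 1 or 2 or MITF/TFEB DKO replicate 2 or 3 (up to 0.123) and with the score (0.119). The fall in the MITF/TFE3 DKO against the parental line was -0.35 ± 0.14, with an adjusted p of 0.0498. It was lost without any library but MITF/TFE3 DKO replicate 2 (up to 0.212), in edgeR (0.0586) and with the score (0.0674). Lamtor4 overlaps Trappc14 on the other strand at its 3′ end, and reads of the 2 genes cannot be told apart if strand was not used.

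Lamtor1, at chr7:101555111-101575882 on the + strand, encodes the lipid-anchored subunit that ties Ragulator to the lysosomal membrane. It was at 235, 274 and 255 CPM in the parental line, 230, 204 and 185 CPM in the TFE3 KO and 265, 256.3 and 272 CPM in the TKO. The TFE3 KO lay below the parental line, with its highest library close to the lowest parental library, and the TKO overlapped the parental line. Lamtor1 fell in the TFE3 KO by 0.30 ± 0.09, with an adjusted p of 0.0232, which was lost without parental replicate 2 or 3 or TFE3 KO replicate 2 or 3 (up to 0.131). In the TKO it was higher than in the TFEB/TFE3 DKO by 0.27 ± 0.09, with an adjusted p of 0.0101, and Lamtor2 by 0.26 ± 0.10, with an adjusted p of 0.0293. The call of Lamtor1 held without any of the 6 libraries, and that of Lamtor2 was lost without replicate 2 or 3 of either line (up to 0.130). Over the 4 lines without MITF Lamtor1 was higher by 0.10 ± 0.04, with an adjusted p of 0.0407, a call lost in 16 of the 24 fits without 1 library (up to 0.0860). Lrrc51, on the other strand at the 3′ end of Lamtor1, was at 0.572 to 4.04 CPM over all libraries.

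In the TKO against the MITF/TFE3 DKO, a comparison added after seeing the data, 26.6% of all genes rose and 24.2% fell. Of the 9 genes, Flcn, Rraga, Rragc and Rragd fell, and Lamtor1 and Lamtor4 rose, by 0.24 ± 0.09 with an adjusted p of 0.0260 and by 0.37 ± 0.14 with an adjusted p of 0.0339. The call of Lamtor1 was lost without MITF/TFE3 DKO replicate 3 or TKO replicate 1 or 3 (up to 0.198), and that of Lamtor4 without MITF/TFE3 DKO replicate 1 or 3 or TKO replicate 1 or 2 (up to 0.160). The study's rule called Flcn and Rragd here.

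The design also asks whether the loss of MITF acts alike with and without the other factors. The difference in Rragd between cells without and with MITF was 0.49 in otherwise unedited cells, 0.40 in cells without TFE3, -0.43 in cells without TFEB and -1.05 in cells without TFEB and TFE3. For Lamtor4 it was 0.54, -0.23, -0.09 and 0.02 in the same order. Of these values, those in cells without TFE3 alone or TFEB alone were not tested by themselves, and the last of Lamtor4 had an adjusted p of 0.926. The difference between the effect without and with TFEB passed for Rragd and Lamtor4, at -0.93 ± 0.23 and -0.63 ± 0.20 with adjusted p-values of 0.00321 and 0.0166, where it was positive and past the threshold in 17.7% of all genes and negative in 17.4%. Without and with TFE3 it passed for Fnip2, Rraga and Lamtor4, where 10.2% of all genes were positive and 10% negative, and without and with both it passed for Rragd, Lamtor1 and Lamtor4, where 21.9% were positive and 19.5% negative.

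Clones can gain or lose stretches of a chromosome, so each gene was set beside the 100 genes nearest to it in order along its chromosome, 50 on each side, with a mean of at least 5 CPM. Rragd in the TKO lay at -1.16 against the parental line and its neighbours on chromosome 4 had a median of -0.12. In the MITF KO Rragd was at 0.49 and its neighbours at 0.12, Lamtor2 at 0.42 and its neighbours at 0.15, and Lamtor4 at 0.54 and its neighbours at -0.07. Fnip2 in the TKO lay at -0.53 while its neighbours on chromosome 3 had a median of 0.23. Flcn in the MITF/TFE3 DKO was at 0.84 with neighbours at 0.05, and Rraga at 0.49 with neighbours at 0.01. By contrast, Lamtor4 in the MITF/TFE3 DKO was at -0.35 and its neighbours on chromosome 5 at -0.39. Lamtor1 and Lamtor2 in the TKO against the TFEB/TFE3 DKO were at 0.27 and 0.26, with neighbours at 0.22 and 0.27, and over the lines without MITF Lamtor2 was at 0.25 with neighbours at 0.20. These changes of Lamtor1, Lamtor2 and Lamtor4 were thus close to those of the genes around them. Rraga in the MITF/TFEB DKO was at -0.37 against the parental line with neighbours at -0.26. Rragd in the MITF/TFEB DKO was at -0.87 against the MITF KO with neighbours at -0.25. In the TKO against the MITF/TFE3 DKO, Lamtor1 was at 0.24, below its neighbours at 0.48, and Lamtor4 at 0.37 with neighbours at 0.15. Whether copy number differed between the lines was not tested.

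**Figure D5:**
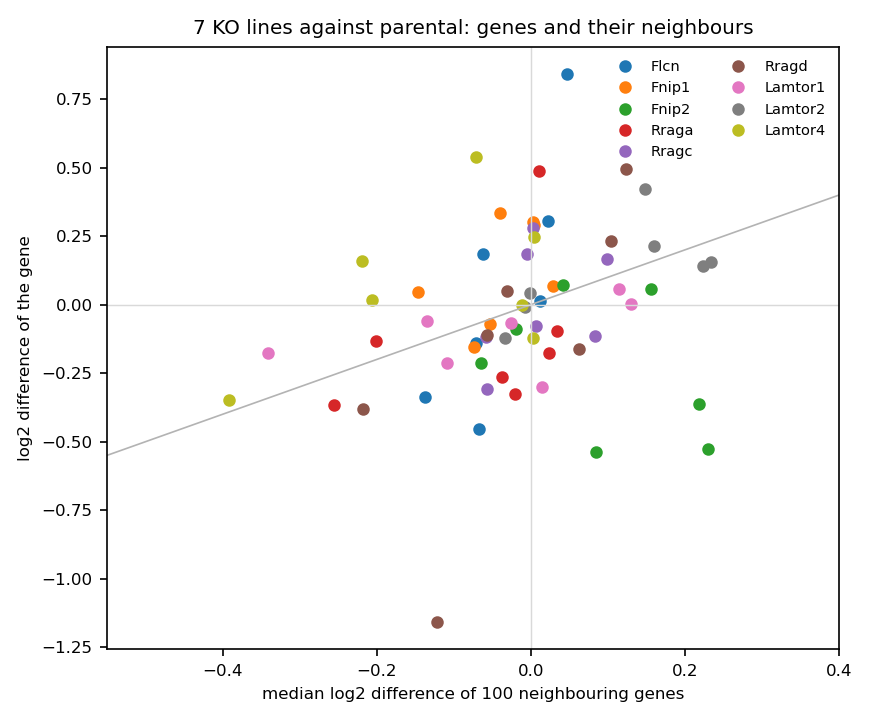
Log2 difference of each of the 9 genes from the parental line (vertical axis) against the median log2 difference of its 100 neighbouring genes (horizontal axis), for 7 KO lines. The grey diagonal marks equal values; Rragd in the TKO (-1.16 against -0.12) and Fnip2 in the TKO (-0.53 against 0.23) lie far below it, and Lamtor4 in the MITF/TFE3 DKO (-0.35 against -0.39) lies on it.

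The other genes that feed into the Rag GTPases and mTORC1 were read from fixed lists of 36 genes, 34 of them in the table. In the MITF KO 4 of the 34 rose and 2 fell, where 20.1% of all genes rose and 17.8% fell, with a median of 0.08 in the lists. In the TKO 4 rose and 9 fell, where 28.3% of all genes rose and 27.9% fell, with a median of -0.06. Over the lines without MITF 9 rose and 6 fell, where 35.1% of all genes rose and 33.7% fell, and the median was 0.02 in the lists and 0.01 over all genes. The counts of the single lists that follow are of this last comparison and stand beside those same shares of all genes. Of the 7 amino acid sensor genes 4 rose, led by Sesn1 at 0.52 ± 0.12 (adjusted p of 0.000494) and Sesn3 at 0.43 ± 0.09 (0.000155), which encode Sestrins, leucine sensors or relatives of them that restrain mTORC1. Of GATOR1, the GTPase-activating complex for RagA and RagB, Depdc5 fell by 0.58 ± 0.08 (5.60e-07) and 2 of 3 genes did not pass. Of GATOR2, which opposes GATOR1, Wdr59 fell by 0.47 ± 0.10 (0.000213) and Mios rose by 0.21 ± 0.05 (0.00147), and 3 of 5 did not pass. Of KICSTOR, which brings GATOR1 to the lysosome, Itfg2 fell by 0.39 ± 0.06 (3.59e-06).

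Downstream of the Rag GTPases, Mlst8, a core mTORC1 subunit gene, rose by 0.38 ± 0.06 (8.18e-06) and Deptor, an inhibitor of mTOR, rose by 0.26 ± 0.06 (0.000499), and 3 of 5 genes of that list did not pass. In the arm that controls RHEB, the GTPase that activates mTORC1, Tsc1 fell by 0.57 ± 0.07 (2.18e-07) and Tbc1d7 rose by 0.32 ± 0.06 (0.000129). Wdr41 of the C9orf72-SMCR8 complex rose by 0.57 ± 0.07 (1.11e-07). Among ubiquitin ligase genes Skp2 fell by 0.46 ± 0.05 (2.97e-08) and Znrf2 by 0.18 ± 0.07 (0.0293). Of the factors themselves Tfe3 rose by 0.41 ± 0.08 (8.48e-05) in this comparison, which has lines with an edited Tfe3 on both sides. With Tfe3 unedited, it averaged 51.7 CPM in the MITF KO and 56.4 CPM in the MITF/TFEB DKO. The parental line and the TFEB KO had 37.1 and 35.7 CPM. With Tfe3 edited, the MITF/TFE3 DKO and the TKO had 8.63 and 19.8 CPM. The TFE3 KO and the TFEB/TFE3 DKO had 10.8 and 11.3 CPM. Adjusted p-values in this paragraph and the one before are from limma over all genes. Mlst8 and Deptor also followed the library score, with an r of -0.84 and -0.90 within lines. Over the lines without MITF 3 of the 5 Ragulator genes rose, where 35.1% of all genes did, Lamtor5 by 0.16 ± 0.05 (0.0114) beside Lamtor1 and Lamtor2. Lamtor3 was at 0.02 ± 0.13 (0.892) in this comparison. Named after its values were seen, Lamtor3 fell in the MITF KO relative to the parental line by 0.71 ± 0.25 (0.0290), where Lamtor2 and Lamtor4 rose, and its r with the library score within lines was 0.90.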

How the data were processed

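Gene expression was measured by 3′ mRNA sequencing of 24 libraries, 3 for each of 8 B16-F10 lines. Per the submitters' processing notes, the authors trimmed reads with Trim Galore 0.6.5 and cutadapt 2.10, checked them with FastQC 0.11.9, mapped them with STAR 2.7.8a to mm39 and normalised with edgeR. The counting tool, the annotation and the low-count filter are not given in the sources used here. The deposited values are a normalized signal, CPM divided by TMM factors (0.925 to 1.07), with totals of 933263 to 1081081 per library, and not plain CPM as had been assumed when the tests were set; the limma test was kept. The steps between values gave back the reads, with 99.998% of values within 0.1 of a whole read, and 18300902 to 26667877 reads on genes. Columns of other samples numbered 0.

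Lines were compared with limma 3.58.1 (trend) on log2(CPM + 1), all 24 libraries in 1 fit with 16 residual degrees of freedom, and Benjamini-Hochberg adjustment over 12010 genes. As an alternative, recovered reads were tested by quasi-likelihood in edgeR 4.0.16. R 4.3.3, Python 3.11.15, numpy 2.4.6, pandas 2.3.3 and matplotlib 3.10.9 were used. In counts simulated for the MITF KO against the parental line over 12010 genes, limma called 67.5% of 40 genes changed by 0.5 on the log2 scale and 0.110% of unchanged genes. The simulated libraries were drawn independently, with the same overdispersion for every gene and with 200 changed genes. They lacked the shared direction seen within the real lines, so these shares need not hold for the real libraries. The members and lists were chosen with earlier results of these data known. All 9 genes are named, then of each list up to 2 called genes with the largest change between lines without and with MITF, the 3 genes most like the 2 members of widest range, and Mitf, Tfeb and Tfe3. Of Rragb, Kics2, Rnf152 and Tfec, no row was used here. Neighbours were the 100 nearest of 9316 genes with a position in GENCODE vM39 and a mean of at least 5 CPM. Replicate numbers did not pair the libraries.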

Additional observations from a re-analysis of the deposited data

Results flagged for a closer look

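The effect of MITF loss was tested for a difference between backgrounds with limma's interaction contrasts, and 8 values passed an adjusted p of 0.05 over all genes. In cells without TFEB against cells with it, the difference was -0.93 for Rragd and -0.63 for Lamtor4 on the log2 scale. That of Rragd held without any of the 12 libraries, and that of Lamtor4 had an adjusted p of 0.0502 without MITF/TFEB DKO replicate 3. With the library score as a covariate they were -1.22 and -0.37.

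In cells without TFE3 against cells with it, the difference was -0.67 for Fnip2, 0.76 for Rraga and -0.77 for Lamtor4. That of Fnip2 was lost without parental replicate 3, MITF KO replicate 3, TFE3 KO replicate 1 or 2 or MITF/TFE3 DKO replicate 1 (adjusted p of up to 0.107), and that of Rraga without parental replicate 3, MITF KO replicate 2 or MITF/TFE3 DKO replicate 1 (up to 0.0669). The neighbours of Lamtor4 on chromosome 5 had a median difference of -0.34 in this contrast.

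In cells without TFEB and TFE3 against cells with both, the difference was -1.54 for Rragd, 0.33 for Lamtor1 and -0.52 for Lamtor4. That of Rragd held without any of the 12 libraries. Those of Lamtor1 and Lamtor4 were each lost in 9 of 12 fits without 1 library (up to 0.0944 and 0.107), the neighbours of Lamtor1 had a median difference of 0.36, and with the score Lamtor4 was at -0.12.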

How the results depend on the processing

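The number of the 9 genes called was recomputed under each alternative. Under the study's rule of a 2-fold change with unadjusted p under 0.05, it was 1 in the TKO against the parental line, the MITF KO and the TFEB/TFE3 DKO and for the effect of MITF loss without against with both other factors, 2 in the TKO against the MITF/TFE3 DKO, and 0 in the other comparisons. With only the compared libraries in the fit, the TFE3 KO had 0 and the MITF/TFEB DKO had 3 relative to the parental line. The latter had 2 with a minimum mean of 5 CPM and 0 with median-of-ratios factors or no variance trend. Without the trend it was 1 for the effect of MITF loss without against with both. With the library score as a covariate, chosen after seeing the data, the MITF KO, MITF/TFEB DKO and TKO had 5 each and the TFE3 KO had 3 relative to the parental line. Relative to the MITF KO, the MITF/TFEB DKO had 2 and the TKO 7, while the TKO had 6 against the TFEB/TFE3 DKO and 4 against the MITF/TFEB DKO. It was 7 over lines without against with MITF. The score differs between lines, so this fit may also take up differences between them.

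With the score 6 values changed sign and passed. Fnip1 was at -0.30 in the MITF/TFE3 DKO against the MITF KO, Rraga at -0.31 and Rragc at -0.39 in the TKO against the MITF KO, Flcn at -0.36 and Rragc at -0.16 in the TKO against the TFEB/TFE3 DKO, and Flcn at -0.65 for the effect of MITF loss without against with both. The cause was not tested.

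Leaving out each library in turn gave, relative to the parental line, 2 to 3 calls for the MITF KO, 0 to 1 for the TFE3 KO, 2 to 4 for the MITF/TFE3 DKO, 0 to 2 for the MITF/TFEB DKO and for the TFEB/TFE3 DKO, and always 0 for the TFEB KO and 2 for the TKO. Relative to the MITF KO it gave 1 to 3 for the MITF/TFEB DKO, 3 to 5 for the MITF/TFE3 DKO and 3 to 4 for the TKO. The TKO had 2 to 3 against the TFEB/TFE3 DKO, 1 against the MITF/TFEB DKO and 3 to 6 against the MITF/TFE3 DKO. Lines without against with MITF gave 3 to 6, and the effect of MITF loss gave 1 to 2 without against with TFEB, 1 to 3 for TFE3 and 1 to 4 for both.

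Libraries with the same replicate number had a mean correlation of 0.02 (lowest -0.66), against -0.01 for other pairs, and 11 of 24 correlated best with their own number. With the replicate block the fall of Fnip2 from the parental line to the MITF/TFEB DKO had an adjusted p of 0.0578 and Fnip1 one of 0.0473 at 0.33, and the counts of calls did not change in any comparison. The TKO calls of Rragd kept their side under every alternative except the fold rule against the MITF/TFEB DKO. Depth was 148 to 10153 reads per gene and library for these genes.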
